A study of Mus musculus with 10 samples.

Results

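The data described here were the expression profiles of 4 sublines of 4T1 mouse mammary carcinoma cells, B1 to B4, each grown out of a brain metastasis, and the question was which genes differed between sublines that came from the same organ. The members were the 4 arrays labelled as brain metastasis, out of 10 arrays in all. The other 6 arrays held 3 sublines from primary tumours (P1 to P3) and 3 from lung metastases (L1 to L3), and they served as the measure of how much sublines of 1 site ordinarily differ. 4T1 is an epithelial mammary tumour line of BALB/c origin that spreads spontaneously in its host strain. Luciferase-labelled tumour cells were inoculated into young adult female BALB/c mice, tumours, lungs and brains were taken individually and dissociated, and the tumour cells that grew out were passaged a few times before RNA was extracted. All 3 groups thus shared the parental line, the host strain, the outgrowth on plastic and the absence of any treatment, and were labelled as differing in the organ of origin. Their dissociation was not alike: primary tumours were chopped and digested with enzymes, whereas lungs and brains were broken up mechanically through a sieve. The part of this difference in the results was not tested. The sublines were isolated independently, and 1 array was run for each. No subline was profiled more than once, so differences between cell populations and differences between cultures of 1 population cannot be told apart.

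A metastatic subline passes through bottlenecks when cells leave the tumour, cross into an organ and grow out again, so that sublines of 1 line can hold different parts of its cell population. Carcinoma cells are known to occupy states along an axis with an epithelial end, marked by E-cadherin, tight junction claudins and keratins, and a mesenchymal end, at which those genes are low and matrix and contractile genes are high. The transcription factor Grhl2 and the splicing regulators Esrp1 and Esrp2 are known to maintain the epithelial programme.

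Each gene was read on an Illumina mouse whole-genome bead array as a fluorescence intensity, given here as a normalized log2 value. Detection was judged against the negative control beads of the same array, with a limit of 0.01 on the detection p-value, and the 9486 genes that met it on 1 or more of the 10 arrays were tested. Between 14796 and 15563 probes were detected on the B arrays, 14218 to 14635 on the P arrays and 14764 to 14938 on the L arrays. The labelled epithelial tumour cell was matched on every array by Krt8 and Krt18, the keratin pair of simple epithelium, at 12.60 to 14.50, although the single probe of Epcam was not detected on any array. Of the 7 mammary epithelial markers 6 were tested. Of these, 4 varied among the brain sublines by the test described below (Cdh1, Krt19, Krt7 and Krt14; 66.7%, against 5.17% of all genes). B3 was the lowest B array in 4 of the 6, against 29.8% of all genes. Of markers of other cells, Gfap, Aqp4, Cx3cr1, Tmem119, Ptprc, Snap25, Rbfox3, Mog, Pecam1 and Cd3e were detected on no array. Of the marker lists, 2 of 9 astrocyte genes, 2 of 11 neuron genes, 2 of 10 oligodendrocyte genes, 2 of 17 microglia and macrophage genes, 1 of 10 endothelial genes, 1 of 10 lung epithelium genes, 1 of 8 granulocyte genes and 0 of 9 lymphocyte genes were detected, and none of these varied among the brain sublines by the test described below. Of the fibroblast and pericyte list, 6 of 10 genes were tested and 2 varied (33.3%, against 5.17% of all genes). The summed level of the 2 microglia and macrophage genes was 5.49 to 5.63 on the B arrays, 6.25 to 6.89 on the P arrays and 7.06 to 7.66 on the L arrays (log2).

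The 4 brain sublines differed from each other more than the sublines of either other site. The distance of each array from the mean of its group, over all tested genes and scaled for the number of arrays in the group, was 32.9, 41.1, 49.2 and 35.6 for B1 to B4, against 27.5, 25.5 and 24.1 for P1 to P3 and 22.7, 23.1 and 22.9 for L1 to L3. Every B array lay farther from its group mean than every P or L array, by 15.4 on average, and the exact two-sided permutation test of 4 arrays against 6 gave p = 0.00476, the smallest that 210 choices allow. Distances within a group share its mean and are not independent. Counting genes that differed at least 2-fold between 2 arrays of a group, the 6 pairs of B arrays gave 325 (B1 and B4) to 879 (B2 and B3), the 3 pairs of P arrays 115 to 219 and the 3 pairs of L arrays 85 to 102. The 3 pairs that hold B3 gave 677, 879 and 715 genes, and the 3 that do not gave 411, 325 and 517.

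**Figure D1:**
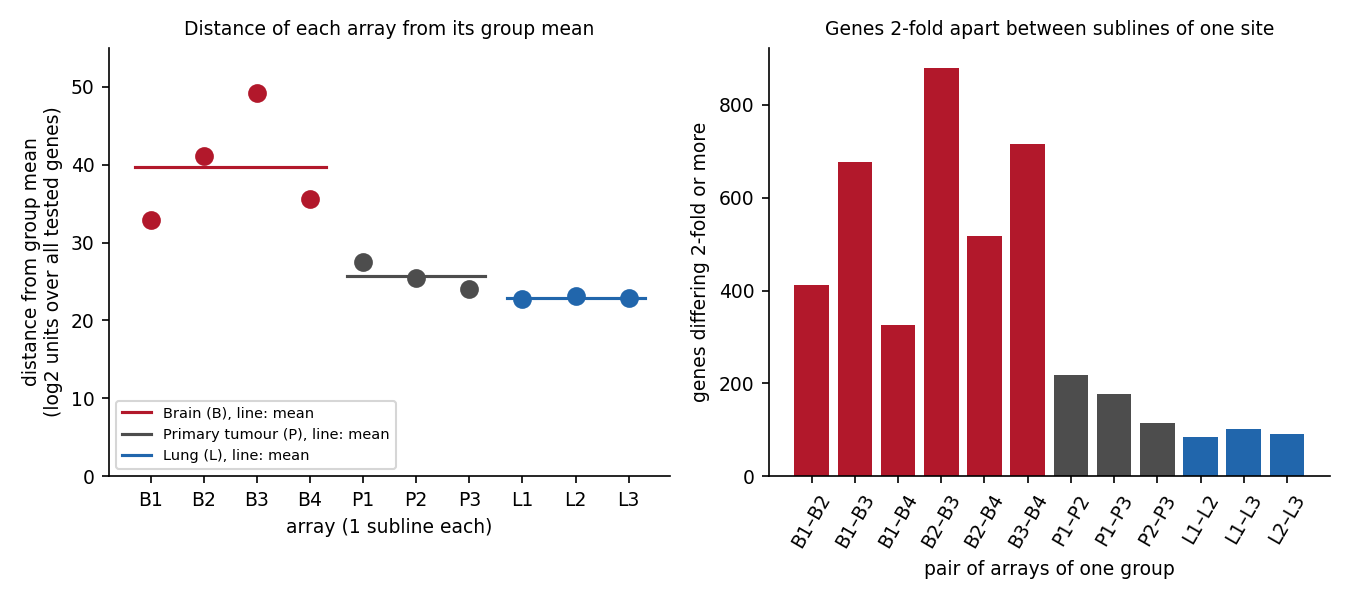
Left, distance of each of the 10 arrays from its group mean (log2 units over 9486 genes; points are arrays, lines group means), with B arrays at 32.9 to 49.2, P arrays at 24.1 to 27.5 and L arrays at 22.7 to 23.1. Right, number of genes at least 2-fold apart for each pair of arrays within a group; all 6 B pairs (325 to 879 genes) stand above all P and L pairs (85 to 219).

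Gene by gene, the median SD over the 4 brain sublines was 0.266 log2 units, against 0.181 over the 3 primary tumour sublines and 0.169 over the 3 lung sublines. The SD was larger among B than among both P and L in 5599 genes, 59% of those tested. A difference of at least 4-fold between the highest and the lowest array was found in 336 genes among the 4 B arrays, against 28 genes among the 3 P arrays and 10 among the 3 L arrays, a count that also grows with the number of arrays. To set the spread of each gene against that of the other groups, limma's moderated F test asked whether B1 to B4 differed by more than the residual spread of the 6 P and L arrays. With Benjamini-Hochberg adjustment over all genes, 490 genes varied among the brain sublines (5.17% of those tested; adjusted p under 0.05), and 2112 had an unadjusted p under 0.05.

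The reverse comparison called 1 gene. Against the spread of the B arrays, 1 gene (0.0105%) varied among the primary tumour sublines and 0 genes (0%) among the lung sublines by the same limma test, with 111 and 67 genes at an unadjusted p under 0.05. Against the spread of P alone, 218 genes (2.3%) varied among the brain sublines, and against that of L alone 513 (5.41%). The count leaned on 1 subline: without B3, 99 genes (1.04%) varied among B1, B2 and B4, all of them among the 490. Same-numbered sublines of lung and brain deviated together over genes, as described with the processing. With the replicate number as a block, the test on B1 to B3 called 109 genes (1.15%), against 473 (4.99%) for the same 3 arrays without the block. The block was estimated from P and L together and leaves fewer degrees of freedom for the residual spread. A call lost with the block can therefore also reflect lost power. P-values here measure the spread between single cultures.

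The share of varying genes differed with detection. Of the 7427 genes detected on all 10 arrays, 198 varied (2.67%), and of the 520 genes detected on B arrays only, 137 did (26.3%). A gene of the second kind entered the test through the brain sublines in which it was high, so its share is not read as a result. The residual spread of such a gene came from P and L arrays that did not detect it, so its p-values are given as descriptions only. Of the genes named below, these are Krt23, F13a1, Thbs2, Pdgfrb, Egr2, Egr3, Atp13a4, Zc4h2, Lilr4b, Kctd12b, Tnfrsf11b, Scara5, Ccn5, Id4, Notum and Snai2. The shares of the gene and marker lists still count such genes, among them Krt23, Pdgfrb, Egr2, Egr3, Id4, Notum and Snai2. Shares that hold them are given as descriptions only. Among the 490 genes, 367 split at their largest gap into 1 subline against the other 3, and 123 into 2 against 2. B3 was the lone low subline in 122 genes, 24.9% of the 490, and the lone high one in 103, 21%. Over all tested genes the same splits made up 12.7% and 11.1%. The commonest split into pairs set B1 and B2 low against B3 and B4 in 43 genes, 8.78% of the 490, against 4.42% of all genes.

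Each brain subline was then set against the mean of the other 3, with the same residual spread, so that the lone array is assumed to vary as the P and L arrays do. B3 was higher in 255 genes (2.69%) and lower in 258 (2.72%). B2 was higher in 86 (0.907%) and lower in 125 (1.32%), B4 higher in 50 (0.527%) and lower in 36 (0.38%), and B1 higher in 30 (0.316%) and lower in 14 (0.148%). A subline far from the rest shifts the mean that the others are set against. With B3 left out, B2 was higher than B1 and B4 in 23 genes (0.242%) and lower in 53 (0.559%), B4 was higher in 35 (0.369%) and lower in 25 (0.264%), and B1 was higher in 14 (0.148%) and lower in 10 (0.105%).

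**Figure D2:**
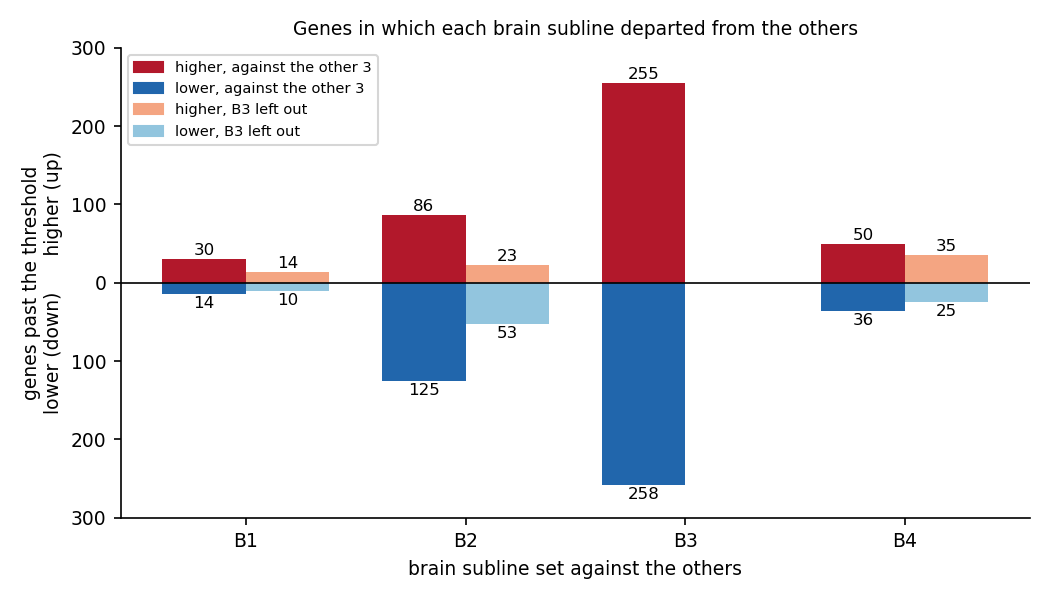
Number of genes (vertical axis, limma, adjusted p under 0.05) in which each brain subline was higher (upward bars) or lower (downward bars) than the mean of the others; dark bars are against the other 3 sublines, pale bars with B3 left out. B3 has 255 higher and 258 lower genes, and the other sublines have 14 to 125 in each direction.

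The 2 varying genes with the largest SD, Krt7 and Esrp1, belong to the epithelial programme, and both were below detection in B3. Of the 20 varying genes with the largest SD, which ran from 2.03 to 3.51, 12 were lowest in B3, 8 also varied without B3 and 18 also varied with the replicate block. Over all tested genes, 29.8% were lowest in B3, 1.04% varied without B3 and 1.15% varied with the block. The 20 genes were picked for their spread over B1 to B4, so their counts are descriptions. Krt7, a keratin of simple and glandular epithelium, had 5.36 in B3, against 12.30, 11.69 and 12.95 in B1, B2 and B4, 12.42, 12.74 and 12.41 in P1 to P3 and 13.15, 13.01 and 12.92 in L1 to L3. It was thus abundant on 9 arrays and not detected in B3, and the other B arrays lay within or just below the range of P and L. The difference of B3 from the other 3 was at least 95.8-fold (measured log2 difference -6.95 ± 0.21, SE; limma, adjusted p = 5.55e-07). Without B3, Krt7 no longer passed the test of spread (adjusted p = 0.103, in a range of 6.59e-10 to 0.103 over its alternatives).

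Regulators of the epithelial programme were low in the same subline. Esrp1, a splicing factor that sets epithelial exon choice, had 4.69 in B3, against 11.06, 11.64 and 8.35 in B1, B2 and B4, 11.77, 11.67 and 11.05 in P and 11.39, 10.97 and 11.76 in L. B3 was below detection, B4 was intermediate, and B1 and B2 lay within the range of P and L. The B3 difference was at least 24.6-fold (log2 difference -5.66 ± 0.34; adjusted p = 2.69e-05), and Esrp1 also varied among B1, B2 and B4 alone. Grhl2, a transcription factor that activates junction genes, had 4.52 in B3, against 9.40, 9.08 and 9.59 in B1, B2 and B4, 9.75, 9.60 and 9.58 in P and 9.78, 9.75 and 9.58 in L. On 9 arrays it stayed within 9.08 to 9.78, and in B3 it was not detected and at least 12.4-fold lower (log2 difference -4.84 ± 0.19; adjusted p = 1.96e-06). Esrp2, the paralogue of Esrp1, was named after its values were seen: it passed the F test narrowly (adjusted p = 0.0484), with 6.74 in B3 against 7.05, 7.56 and 8.16 in B1, B2 and B4.

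Junction proteins were low in B3 too. Cldn4, a tight junction claudin, had 6.62 in B3, against 11.88, 10.26 and 11.79 in B1, B2 and B4, 11.56, 12.86 and 11.78 in P and 13.05, 12.89 and 12.88 in L, so that B3 was detected and 25.7-fold lower than the other brain sublines (log2 difference -4.68 ± 0.41; adjusted p = 0.000265). Dsg2, a desmosomal cadherin, had 4.96 in B3, against 9.08, 10.13 and 9.08 in B1, B2 and B4, 10.03, 9.97 and 9.46 in P and 10.42, 10.13 and 10.14 in L. B3 alone was not detected there, a difference of at least 13-fold (log2 difference -4.47 ± 0.26; adjusted p = 2.06e-05). A second and dimmer probe of Dsg2 had 5.34 in B3, against 6.03, 6.28 and 5.73 in B1, B2 and B4, and did not pass when tested over all probes (adjusted p = 0.338). Cldn3 and Cdh1, chosen after their values were seen, had 4.92 and 8.31 in B3. Cldn3 was at least 8.88-fold lower there than in the other brain sublines, where it had 8.46 to 9.26. Cdh1, which encodes E-cadherin, was detected on every array: B3 was 3.2-fold below the other brain sublines (log2 difference -1.68 ± 0.24; adjusted p = 0.00376), which had 9.64 to 10.22, and all 4 B arrays were below the 10.76 to 11.33 of P and L. With the replicate block, the spread of Cdh1 over B1 to B3 did not pass (adjusted p = 0.151, and 0.00167 to 0.485 over its other alternatives), while those of Cldn4, Dsg2 and Cldn3 did.

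The 250 bases before the start of Krt7 and of the 2 claudins are shown because these genes moved together and their starts were at hand in RefSeq (build GRCm38.p6). They run 5′ to 3′ on the strand of the gene, at chr15:101412153-101412402 (plus strand) for Krt7, chr5:134946935-134947184 (minus strand) for Cldn4 and chr5:134985964-134986213 (plus strand) for Cldn3, and capitals mark the E-box letters CACCTG, searched on both strands as CACCTG or CAGGTG and with no other motif sought. Repressors of the Snail and Zeb families are known to bind this box.
Krt7: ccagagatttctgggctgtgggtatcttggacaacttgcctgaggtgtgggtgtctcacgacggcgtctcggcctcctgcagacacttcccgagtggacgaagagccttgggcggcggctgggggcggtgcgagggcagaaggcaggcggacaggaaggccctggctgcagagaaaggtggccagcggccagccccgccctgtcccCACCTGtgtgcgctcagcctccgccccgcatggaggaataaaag
Cldn4: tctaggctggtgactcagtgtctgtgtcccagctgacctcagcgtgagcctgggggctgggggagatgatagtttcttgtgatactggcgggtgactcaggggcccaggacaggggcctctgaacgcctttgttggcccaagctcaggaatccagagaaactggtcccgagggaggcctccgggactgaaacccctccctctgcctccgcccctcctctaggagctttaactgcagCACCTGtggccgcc
Cldn3: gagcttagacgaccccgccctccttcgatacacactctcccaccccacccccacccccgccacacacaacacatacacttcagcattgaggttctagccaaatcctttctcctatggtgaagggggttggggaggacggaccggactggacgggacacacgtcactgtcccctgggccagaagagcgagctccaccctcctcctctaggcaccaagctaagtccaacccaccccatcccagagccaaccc
Krt7 and Cldn4 hold 1 match each and Cldn3 none, and at least 1 match is held by 17.2% of the 32851 RefSeq windows of this length. A match is a run of letters and no evidence of binding.

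Of the list of epithelial adhesion genes, 13 of 22 were tested and 8 varied among the brain sublines, against 5.17% of all genes. The median SD of the 13 was 0.88 over B, 0.31 over P and 0.22 over L, where all tested genes had 0.27, 0.18 and 0.17. B3 was the lowest B array in 11 of the 13, against 29.8% of all genes, and 7 passed the test as lower in B3, against 2.72% of all genes. The members that did not pass were Cldn7, Ocln, Pkp3, Prss8 and Tjp1. Without B3, 1 of the 13 varied (Esrp1), and with the replicate block 6 did, against 1.04% and 1.15% of all genes.

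Further genes had large departures in B3. Kcnk1, a potassium channel, had 6.09 in B3 against 11.10, 10.67 and 11.28 in the other brain sublines, a 30.4-fold difference that its second probe also showed, with 5.34 in B3 against 9.69, 9.33 and 9.81. Fermt1, the kindlin that links integrins to actin in epithelial cells, had 4.56 in B3 against 9.35, 8.01 and 9.07. Tmem54, a membrane protein, had 4.72 in B3 against 9.27, 8.24 and 8.89, and Il24, a cytokine of the interleukin 10 family, had 4.84 against 9.17, 9.38 and 9.56. All 3 were at 8.72 or above on every P and L array and below detection in B3, with adjusted p-values for the B3 difference between 2.69e-05 and 6.15e-05 (limma). Epb41l4a had 4.48 in B3 against 10.13, 9.37 and 10.25, but its other probe had 5.50 in B3 against 5.58, 5.21 and 5.78, so the 2 probes disagree. Lamb3, a chain of the epithelial basement membrane protein laminin-332, had 4.65 in B3 against 7.5, 6.74 and 8.09, and its spread passed neither in the authors' processed values nor with the replicate block (adjusted p = 0.091, and 0.000894 to 0.282 over its other alternatives).

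The keratins divided. Of 11 in the list, 7 were tested and 4 varied, where 5.17% of all genes did: Krt7, Krt19, Krt14 and Krt23, with a median SD of 1.05 over B, 0.21 over P and 0.18 over L. Without B3, 0 of the 7 varied, and with the replicate block Krt7 and Krt23 did, against 1.04% and 1.15% of all genes. Krt19 had 6.27 in B3, against 8.38, 8.06 and 8.56 in B1, B2 and B4 and 8.48 to 9.73 in P and L, and was 4.17-fold lower in B3 (adjusted p = 0.00376). Krt14, a basal keratin, had 7.54, 5.17, 4.75 and 7.14 in B1 to B4, against 10.98, 11.62 and 10.08 in P and 10.91, 11.03 and 11.63 in L. B2 and B3 were thus below detection, and all 4 brain sublines lay below all others. Its variation among B was close to the threshold (adjusted p = 0.0475) and was lost under 11 of its alternatives, whose adjusted p ran from 0.00962 to 0.497. Krt23 ran the other way, with 7.71 in B3 against 5.02, 5.12 and 5.66 in B1, B2 and B4 and 4.43 to 4.57 in P and L. Krt8 and Krt18, chosen after their values were seen, did not pass: Krt8 had 14.03, 13.87, 14.50 and 13.91 in B1 to B4 (adjusted p = 0.365) and Krt18 had 13.40, 12.66, 13.66 and 13.27 (adjusted p = 0.178), with B3 the highest in both.

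**Figure D3:**
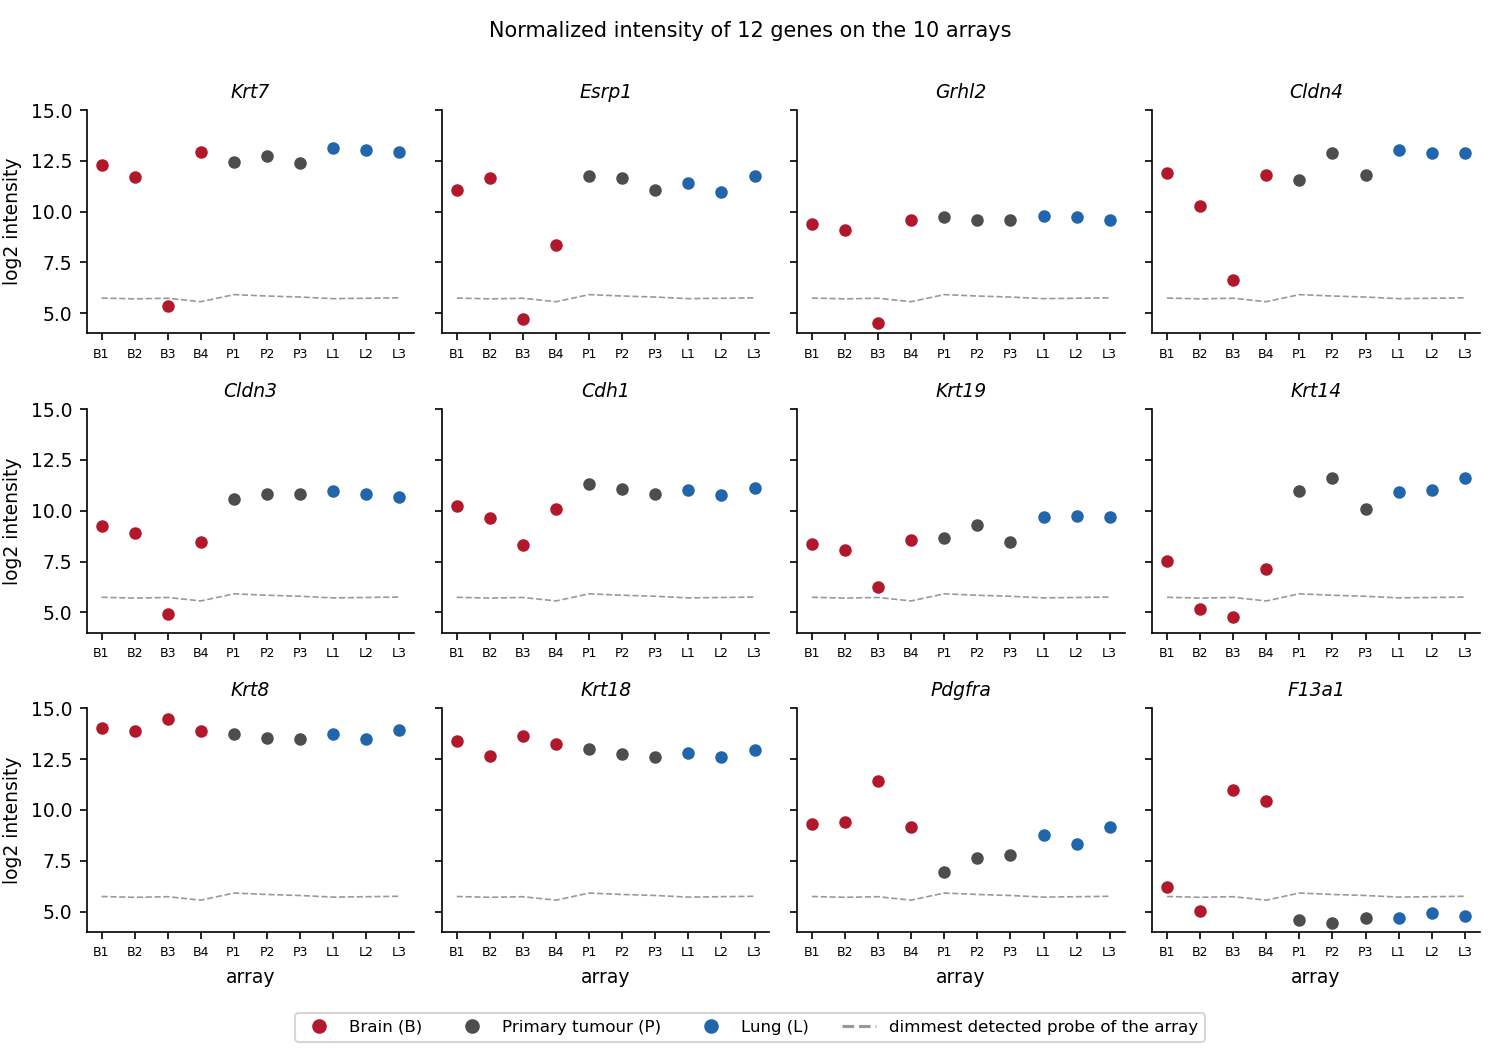
Normalized log2 intensity of 12 genes on the 10 arrays (B arrays at the left in each panel, then P and L; the dashed line is the dimmest detected probe of each array). B3 lies at 4.52 to 8.31 for Krt7, Esrp1, Grhl2, Cldn4, Cldn3, Cdh1 and Krt19, below every other array in each, while Krt8 and Krt18 stay between 12.60 and 14.50, and F13a1 is above 10 in B3 and B4 and at 6.19 or below on the other 8 arrays.

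Genes higher in B3 were of several kinds. Pdgfra, a growth factor receptor of mesenchymal cells, had 11.43 in B3, against 9.33, 9.42 and 9.16 in B1, B2 and B4, 6.93, 7.62 and 7.76 in P and 8.78, 8.33 and 9.17 in L. B3 stood above all other arrays, 4.37-fold over the other brain sublines (log2 difference 2.13 ± 0.37; adjusted p = 0.0105). Its spread over B1 to B4 (adjusted p = 0.0437) was lost without B3, P2, P3 or L1, in a range of adjusted p from 0.00282 to 0.935 over its alternatives. Pdgfrb, its paralogue, was detected on no array but B3, at 6.24 there against 4.54, 4.71 and 4.70 in B1, B2 and B4. With the replicate block neither passed the test of spread (adjusted p = 0.287 for Pdgfra and 0.0869 for Pdgfrb), and over its other alternatives Pdgfrb ran from 0.0112 to 0.905 and was lost in the authors' processed values. These 2 receptors were fixed as markers of fibroblasts and pericytes: 6 of that list's 10 genes were tested, 2 varied, and the summed level was 9.62 to 11.54 on the B arrays, 8.05 to 8.62 on the P arrays and 9.09 to 9.58 on the L arrays (log2). The highest sum, 11.54, was that of B3, where Pdgfra alone had 11.43, so it mostly restates Pdgfra. Thy1 and Des, of the same list, were at 4.51 and 4.91 in B3, and Col3a1 and Lum were detected on no array. The part of such cells in the result was not tested.

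Thbs2, a matrix glycoprotein, had 7.95 in B3 and 4.46, 4.43 and 4.44 in B1, B2 and B4, and no array but B3 detected it, a difference of at least 4.87-fold (adjusted p = 4.76e-05). Lgals7, a galectin of stratified epithelium, had 8.92 in B3 against 5.33, 4.87 and 5.01, at least 9.53-fold higher. Fcgrt, the neonatal receptor for immunoglobulin G, had 9.49 in B3 against 5.73, 6.36 and 5.62 in B1, B2 and B4, 12-fold higher, with B1 below detection. Second probes of Lgals7 and Fcgrt gave 7.99 and 8.57 in B3, against 5.19 and 4.72 in B1, 4.97 and 5.22 in B2 and 5.18 and 5.37 in B4. Rtl8a, a gene derived from a retrotransposon, had 9.73 in B3, against 4.62, 4.97 and 7.06 in B1, B2 and B4, but also ranged from 4.74 to 6.92 over the P arrays. Capn5, a calpain protease, had 9.21 in B3 and was lowest in B2, at 4.91, with 6.82 and 6.87 in B1 and B4.

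Some genes set B3 and B4 together. F13a1, the catalytic subunit of coagulation factor XIII, had 6.19, 5.05, 10.98 and 10.44 in B1 to B4, against 4.59, 4.45 and 4.66 in P1 to P3 and 4.70, 4.95 and 4.79 in L1 to L3. It was detected in B1, B3 and B4 and on no P or L array, its range over B was at least 38.8-fold, and it varied with and without B3 (F test over B1 to B4, adjusted p = 5.43e-06). Tnfrsf11b, osteoprotegerin, the decoy receptor that restrains osteoclast formation, had 4.77, 4.92, 7.73 and 8.83 in B1 to B4 and was detected in B3 and B4 only (adjusted p = 5.04e-05). Cbr3, a carbonyl reductase, had 5.24, 4.55, 8.71 and 7.87, and its other probe had 4.78, 4.51, 7.07 and 6.67. In all 3 genes the pair B3 and B4 stood apart from B1 and B2.

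Of 20 genes of the mesenchymal end of the axis 15 were tested and 2 varied (13.3%, against 5.17% of all genes), Sparc and Snai2, both named after their values were seen. Sparc, a matrix-binding protein, had 10.80, 9.80, 11.58 and 11.74 in B1 to B4, and B2 was lower than the other brain sublines (log2 difference -1.57 ± 0.25; adjusted p = 0.0177). Snai2, a repressor of epithelial genes, had 4.63, 6.29, 4.84 and 6.42 in B1 to B4 and was detected in B2 and B4 only, not in B3. It did not pass in the authors' processed values, and with the replicate block neither gene did (adjusted p = 0.106 for Snai2, with 0.00414 to 0.076 over its other alternatives, and 0.26 for Sparc, with 0.00198 to 0.215). The list had a median SD of 0.46 over B, 0.30 over P and 0.22 over L. Of the collagens and matrix proteins 2 of 16 varied (12.5%), Lamb3 and Fbln2, and of the matrix proteases and their inhibitors 3 of 20 (15%), Mmp9, Mmp14 and Adamts9. Mmp9, a gelatinase, had 8.16, 6.40, 8.98 and 6.0 in B1 to B4, against 7.62, 8.68 and 7.90 in P and 9.79, 10.59 and 9.76 in L, so that the sublines fell into pairs (adjusted p = 0.0234), a call lost in the authors' processed values. Mgp, a matrix calcification inhibitor, had 11.06, 11.18, 13.98 and 10.38 in B1 to B4, a 12.1-fold range, but also spread widely in P (6.22 to 8.17) and L (6.67 to 8.66) and did not pass (adjusted p = 0.149).

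More genes were lower in B2 (125) than higher (86). Tubb2b, a beta-tubulin isotype, had 7.10 in B2, against 11.52, 11.07 and 12.15 in B1, B3 and B4, 11.59, 12.20 and 11.83 in P and 12.53, 12.26 and 12.08 in L. B2 was below every other array and 22.3-fold below the other brain sublines (log2 difference -4.48 ± 0.27; adjusted p = 0.000144), and on each of the 4 other probes of the gene B2 was the lowest B array. Glipr2, a Golgi-associated protein, had 5.53 in B2 against 8.67, 9.66 and 9.80 in B1, B3 and B4, at least 12.8-fold lower. Its second bright probe had 5.14 in B2 against 8.42, 9.66 and 9.78, while a dim probe had 4.48 against 5.46, 6.61 and 6.87 and did not pass when tested over all probes (adjusted p = 0.207). Cpq, a secreted carboxypeptidase, had 4.47 in B2 against 7.15, 8.81 and 8.06. Cadps2, a protein of dense-core vesicle release, was below detection in both B2 and B3, at 4.46 and 5.01, against 9.01 and 9.41 in B1 and B4 and 8.32 to 9.09 in P and L. Adap1, a GTPase-activating protein for Arf6, had 6.14 in B2 against 8.35, 10.72 and 9.19. With the replicate block neither Glipr2 nor Adap1 passed the test of spread (adjusted p = 0.0916 for both, with 0.000164 to 0.493 and 0.000127 to 0.145 over their other alternatives).

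Other genes were high in B2. Gsta1, an alpha-class glutathione transferase, had 7.59 in B2, against 4.86, 4.55 and 4.85 in B1, B3 and B4, 6.75, 6.88 and 6.54 in P and 5.66, 5.76 and 5.60 in L. Only B2 among the brain sublines detected it, at least 3.76-fold above the others (log2 difference 2.84 ± 0.20; adjusted p = 0.000325). Gsta2, named after its values were seen, had 6.31 in B2 against 4.66, 4.54 and 4.70, but the alpha-class transferases are near-identical in sequence and their probes may share transcripts. Its spread passed neither in the authors' processed values nor with the replicate block (adjusted p = 0.117, and 0.00673 to 0.926 over its other alternatives). Zc4h2, a zinc finger protein, had 7.58 in B2 against 4.95, 4.70 and 4.70, and Lilr4b, an inhibitory leukocyte receptor, 7.5 against 4.86, 4.72 and 4.72. Both were detected in B2 and on no other array, and their other probes also had B2 highest. Atp13a4, a P-type ATPase, had 9.11, 10.04, 5.06 and 6.95 in B1 to B4, and no P or L array detected it. Csf3, the granulocyte growth factor G-CSF, had 9.36 in B2 against 7.02, 6.08 and 6.81 (adjusted p = 0.0327), but a second probe had 5.17 in B2 against 5.09, 6.13 and 5.17, and the F test over the 4 arrays gave adjusted p = 0.055. S100a8, the 1 tested gene of 8 granulocyte markers, was also highest in B2, with 8.64 there against 5.35, 4.55 and 6.92 in B1, B3 and B4, 4.80, 5.45 and 6.78 in P and 7.28, 8.13 and 5.64 in L, and did not pass (adjusted p = 0.142). Ptprc, a marker of all leukocytes, was detected on no array, and the part of such cells in the genes high in B2 was not tested.

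Of the cholesterol and fatty acid synthesis genes, 22 of 29 were tested and 5 varied (22.7%, against 5.17% of all genes): Mvk, Mvd, Msmo1, Nsdhl and Sqle, enzymes of the pathway from mevalonate to cholesterol. Sqle, squalene epoxidase, had 10.63 in B2, against 11.71, 12.17 and 11.89 in B1, B3 and B4, 12.07, 11.79 and 11.79 in P and 11.78, 12.16 and 11.97 in L. B2 was below all other arrays, 2.45-fold under the other brain sublines (log2 difference -1.29 ± 0.22; adjusted p = 0.0198). Msmo1 and Nsdhl, both of which act on sterol methyl groups, had 9.41 and 8.10 in B2, against 9.87 and 8.66 in B1, 10.89 and 9.48 in B3 and 10.64 and 9.50 in B4, and B2 was lower in both (adjusted p = 0.0466 and 0.0228). Mvk, mevalonate kinase, had 6.47, 5.29, 5.68 and 7.17 in B1 to B4, and Mvd, the next decarboxylase, 7.65, 7.19, 8.55 and 8.78. B2 was the lowest B array in 13 of the 22 genes and B1 in 8, against 25.9% and 20.7% of all genes. Sqle and Nsdhl were named after their values were seen. Without B3, 1 of the 22 varied, and with the replicate block 0 did, against 1.04% and 1.15% of all genes.

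B4 had its own departures. Kctd12b, a potassium channel tetramerization domain protein, had 9.29 in B4 against 4.64, 4.54 and 4.79 in B1 to B3, 4.59, 5.79 and 4.71 in P and 4.48, 4.50 and 4.48 in L, and was detected on no other array. The difference was at least 11.9-fold (adjusted p = 0.000753). A second probe had 7.72 in B4 against 4.62, 4.87 and 4.58, and another had 6.72 against 5.22, 4.96 and 5.15 and did not pass when tested over all probes (adjusted p = 0.0847). Gvin1, a very large interferon-inducible GTPase, had 9.35 in B4 against 6.53, 6.72 and 5.23 in B1 to B3, and 9.28 to 9.81 in P and L, so that B4 was the brain subline nearest to the other sites. Stc2, a secreted glycoprotein hormone, had 8.21 in B4 against 5.23, 6.34 and 4.74.

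Among genes low in B4, Selp, the adhesion receptor P-selectin, had 5.48 in B4 against 7.60, 10 and 9.49 in B1 to B3, 4.81, 4.57 and 4.71 in P and 5.81, 5.20 and 5.82 in L. B4 was not detected and at least 11.1-fold lower than the other brain sublines (log2 difference -3.55 ± 0.26; adjusted p = 0.000387), within the range of P and L. Scara5, a ferritin receptor, had 5.81 in B4 against 8.55, 7.68 and 9.82, and was detected on all 4 B arrays and on no P or L array. Dpp7, a lysosomal dipeptidase, had 6.47 in B4 against 8.98, 8.45 and 9.16, and Snurf, of the imprinted Snrpn locus, 7.11 against 8.71, 9.56 and 9.83, with P and L at 10.14 to 10.56. Zfp979, a zinc finger protein, had 5.35 in B4 against 8.09, 9.06 and 7.99, with a second probe alike, a difference lost in the authors' processed values and without L1 or L2. Il33, an alarmin cytokine, had 5.01 in B4 against 7.41, 7.06 and 7.36 (adjusted p = 0.0296 for the B4 difference, 0.00485 to 0.11 over its alternatives, with the call lost without P3, L1, L2 or L3). The replicate block leaves out B4 and does not bear on its departures.

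B1 was nearest to the group mean. Igf2bp1, an oncofetal RNA-binding protein, had 6.39 in B1, against 8.42, 8.48 and 8.67 in B2 to B4, 9.28, 9.87 and 9.27 in P and 8.97, 9.89 and 9.57 in L. B1 was below all other arrays and 4.39-fold below the other brain sublines (log2 difference -2.13 ± 0.35; adjusted p = 0.0413), a call lost in the authors' processed values, with no detection filter and without B3, P3 or L3, in a range of adjusted p from 0.0088 to 0.16 over its alternatives. All 3 other probes of Igf2bp1 had B1 lowest too, and its spread did not pass with the replicate block (adjusted p = 0.132, and 0.00803 to 0.912 over its other alternatives). Rnf113a2, a RING finger protein, had 4.96 in B1 against 6.38, 8.28 and 8.09, a difference lost in the authors' processed values. Ccn5, a matricellular growth regulator, was detected in B3 and B4 only, at 8.0 and 6.76, and not in B1 (4.52) or B2 (5.12).

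Of the immediate early and ERK feedback genes, 4 of 25 tested varied (16%, against 5.17% of all genes): Egr2, Egr3, Fos and Fosl2. Egr2 and Egr3 were detected on no P or L array, so this share is not read as a result. Without B3, 1 of the 25 varied (Fos), and with the replicate block 1 did (Egr2), against 1.04% and 1.15% of all genes. Egr2 had 9.0 in B3, against 6.39, 6.38 and 5.47 in B1, B2 and B4, and was detected in B1, B2 and B3 and on no other array (7.57-fold; adjusted p = 0.000137). Egr3 had 7.68, 8.69, 8.89 and 6.49 in B1 to B4, and Fos 5.13, 5.93, 7.98 and 7.33. These genes respond within minutes to serum and handling, and no record of the harvest of each culture was used here.

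Genes of the Id and BMP pathway, which the study followed up, included 5 of 28 that varied (17.9%, against 5.17% of all genes): Id4, Bmp7, Tgfbi, Ccn2 and Inhba. Without B3, 2 of the 28 varied (Id4 and Bmp7), and with the replicate block 2 did (Id4 and Ccn2), against 1.04% and 1.15% of all genes. Id4, an inhibitor of basic helix-loop-helix factors, had 7.10, 7.59, 4.93 and 6.04 in B1 to B4 and was detected in B1, B2 and B4 and on no P or L array (adjusted p = 0.000847), and its second probe also had B2 and B1 highest. Id1 had 7.30, 7.84, 8.61 and 8.25 in B1 to B4 and did not pass the F test (adjusted p = 0.116). Id3 had 8.33, 7.95, 7.76 and 9.32 and did not pass either (adjusted p = 0.0848, and 0.0249 to 0.541 over its alternatives, 4 of which called it). Bmp7, a BMP ligand, had 8.61, 9.40, 7.68 and 6.93 in B1 to B4, against 9.09, 8.14 and 8.77 in P and 8.70, 8.45 and 8.74 in L (adjusted p = 0.0232). B2 was above and B3 and B4 were below all P and L arrays. Ccn2, a TGF-beta and YAP target, had 11, 9.92, 12.47 and 12.20 in B1 to B4 (adjusted p = 0.0276), and both of its probes had B2 lowest.

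The 5 genes chosen for follow-up in the study did not pass the test of spread. Id2 had 9.88, 10.08, 10.04 and 9.27 in B1 to B4, with SDs of 0.37 over B, 0.37 over P and 0.05 over L (adjusted p = 0.323). Aldh3a1, an aldehyde dehydrogenase, had 9.20, 10.03, 10.79 and 8.59, a 4.61-fold range, with SDs of 0.96, 0.72 and 0.35 over B, P and L. It missed the threshold (adjusted p = 0.136, and 0.00359 to 0.386 over its alternatives, 4 of which called it), so its order of B3 over B2, B1 and B4 is a description. Bdh2 had 9.61, 10.11, 10.66 and 9.14, in the same order of sublines. Gpnmb had 13.95, 12.61, 13.19 and 13.66 and Uap1l1 12.40, 12.12, 12.33 and 12.39. The SD of Uap1l1 was 0.13 over B, against 0.35 over P and 0.15 over L. The adjusted p was 0.149, 0.313 and 0.89 for these 3, which does not show that their levels were equal. Dimmer probes of Id2 (7.29, 8.02, 6.86 and 6.46 in B1 to B4) and Gpnmb (7.68, 6.10, 6.68 and 7.11) did pass when tested over all probes, with adjusted p = 0.0485 and 0.0194, while the other dimmer probe of Id2 (0.343) and the other 2 of Gpnmb (0.197 and 0.0846) did not.

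A wide spread over the brain sublines did not always exceed that of the other sites. Lcn2, a secreted iron-siderophore binder, had 8.03, 12.25, 7.09 and 8.59 in B1 to B4, a 35.6-fold range, but 4.49, 8.68 and 8.11 in P and 12.23, 12.09 and 9.81 in L, with SDs of 2.26, 2.27 and 1.36. Il1a, an inflammatory cytokine, had 4.84, 8.26, 4.61 and 5.05 in B1 to B4, and SDs of 1.72, 1.11 and 1.74 over B, P and L. Cxcl1, a neutrophil chemokine, had 9.53, 11.02, 7.48 and 9.08, with SDs of 1.45, 1.14 and 0.58. In all 3 genes B2 was the highest brain subline, and none passed (adjusted p = 0.263, 0.277 and 0.141). Of 20 chemokine and NF-kappaB target genes tested 1 varied (5%), with a median SD of 0.40 over B, 0.45 over P and 0.38 over L, and of 5 acute-phase and secreted defence genes 0 did, with 0.46 over B, 1.44 over P and 0.38 over L.

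In the remaining lists, against 5.17% of all genes, 5 of 24 NRF2 targets and glutathione genes varied (20.8%; Nqo1, Gsta1, Gsta2, Gsta4 and Cbr3) and 2 of 12 Wnt pathway genes (16.7%). The counts were 2 of 23 for interferon-stimulated genes (8.7%), 1 of 9 for aldehyde dehydrogenases (11.1%), 1 of 13 for integrins (7.69%), 1 of 28 for amino acid synthesis and ATF4 response genes (3.57%) and 1 of 36 for lysosomal genes (2.78%). Wnt7a had 6.59, 6.79, 4.55 and 8.01 in B1 to B4, against 9.60 to 10.37 in P and L, and was not detected in B3 (adjusted p = 0.00101). It did not pass with the replicate block (adjusted p = 0.0703, and 0.000106 to 0.0887 over its other alternatives). Csn3, kappa-casein, was the 1 varying gene of 6 proliferins and milk proteins, with 10.52, 10.88, 6.73 and 8.60 in B1 to B4, against 6.63, 7.14 and 7.57 in P and 9.22, 9.25 and 9.32 in L, and both its probes had B3 lowest (adjusted p = 0.000838). Hexa, the lysosomal hexosaminidase alpha subunit, had 8.20, 4.53, 7.26 and 5.82 in B1 to B4 and was not detected in B2, a call lost under 8 alternatives, among them without any 1 of B1, B2, B3, L1, L2 and L3 (adjusted p = 0.0393, and 0.00196 to 0.164 over its alternatives).

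Genes of basic cell functions did not pass. None of 49 cytosolic ribosomal protein genes, 30 proteasome genes, 42 respiratory chain genes, 32 ribosome biogenesis genes, 30 cell cycle genes, 26 glycolysis and hypoxia genes, 20 MHC class I and peptide loading genes and 11 S100 genes passed the F test, and their median SDs over B were 0.10, 0.15, 0.22, 0.26, 0.29, 0.26, 0.30 and 0.30 log2 units. For the cytosolic ribosomal proteins the SD was 0.09 over P and 0.08 over L, and for the proteasome 0.14 and 0.13. Over P and L it was 0.13 and 0.10 for the respiratory chain, 0.18 and 0.16 for ribosome biogenesis and 0.17 and 0.19 for the cell cycle. For glycolysis and hypoxia it was 0.15 and 0.16, for MHC class I 0.27 and 0.27 and for S100 genes 0.29 and 0.21. All tested genes had 0.27 over B, 0.18 over P and 0.17 over L. As 5.17% of all genes passed, a short list can hold no passing member at that share.

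**Figure D4:**
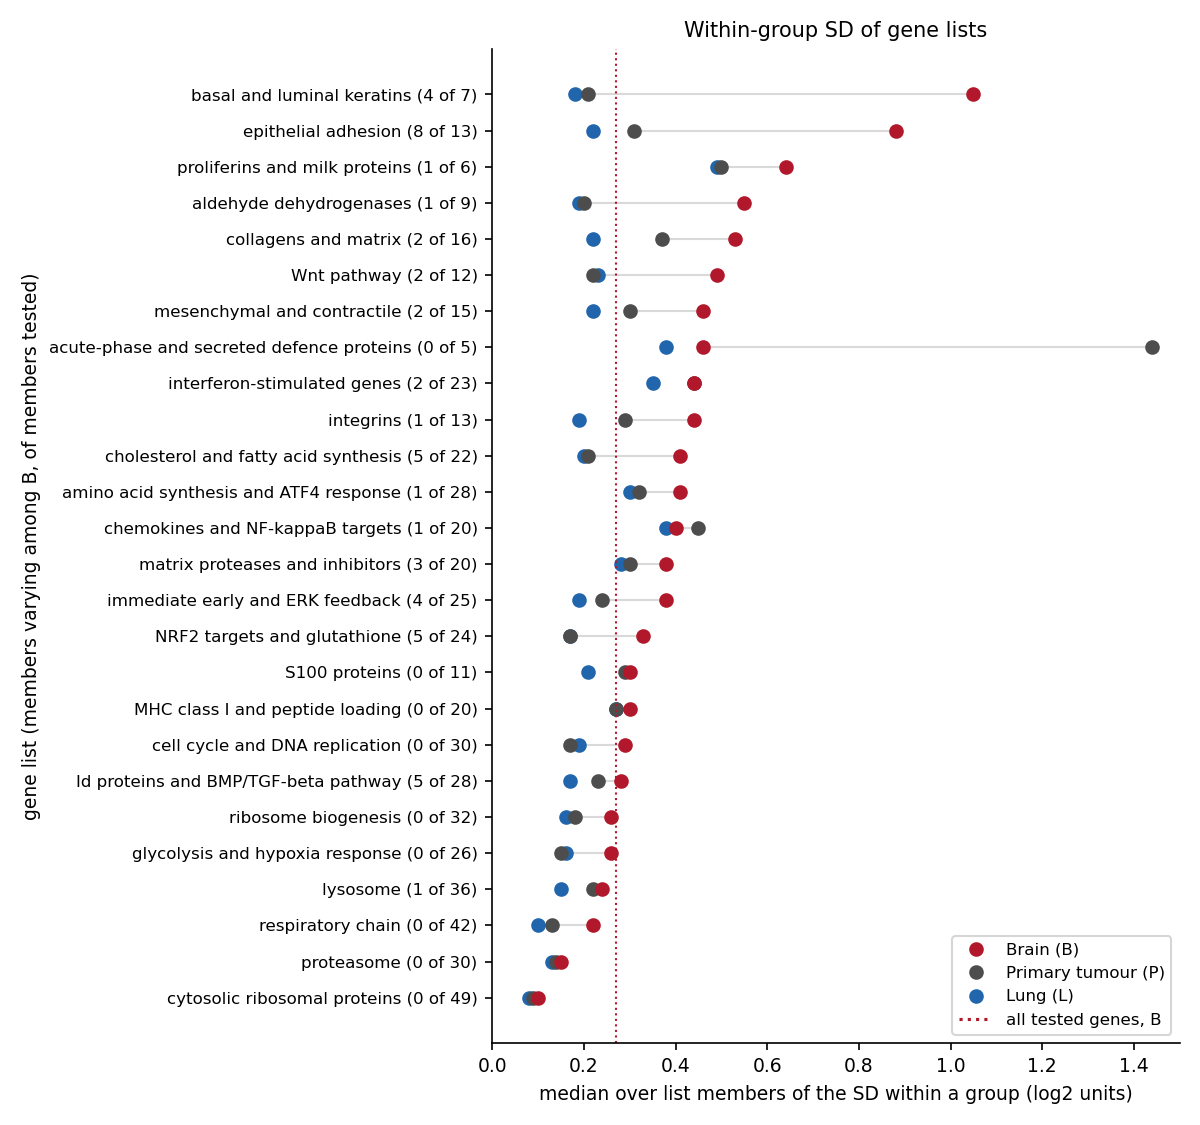
Median over the tested members of each gene list of the SD within the 4 brain (B), 3 primary tumour (P) and 3 lung (L) arrays, in log2 units; the number of members varying among B, of those tested, follows each name, and the dotted line is the median of all tested genes over B (0.27). Keratins (1.05) and epithelial adhesion genes (0.88) have the largest medians over B, and ribosomal protein genes (0.10) the smallest.

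The brain sublines also differed in the median expression of the genes of some chromosomes. For 9465 genes with a chromosome in RefSeq, the median over a chromosome's genes of the difference from the group mean went from -0.29 (chromosome 15 in B2) to 0.22 (chromosome 19 in B4) on the B arrays, against -0.08 to 0.06 on the P arrays and -0.10 to 0.10 on the L arrays. It lay beyond 0.1 in either direction in 25 of the 80 values of B and in 0 of 60 of P and 0 of 60 of L. The limit of 0.1 coincides with the extremes of the L arrays, so the count for L follows from where the limit lies. These counts are descriptions. On chromosome 15, with 394 genes, the medians were 0.07, -0.29, 0.17 and 0.05 for B1 to B4, and 8.38% of its genes varied. B3 was low on chromosomes 5, 10, 18 and 19, at -0.21, -0.22, -0.19 and -0.19, and B4 was high on 13 and 19, at 0.21 and 0.22. The share of genes that varied ran from 3.39% on chromosome 17 to 9.7% on chromosome 18. These values were given no test, and gene dosage was not measured.

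**Figure D5:**
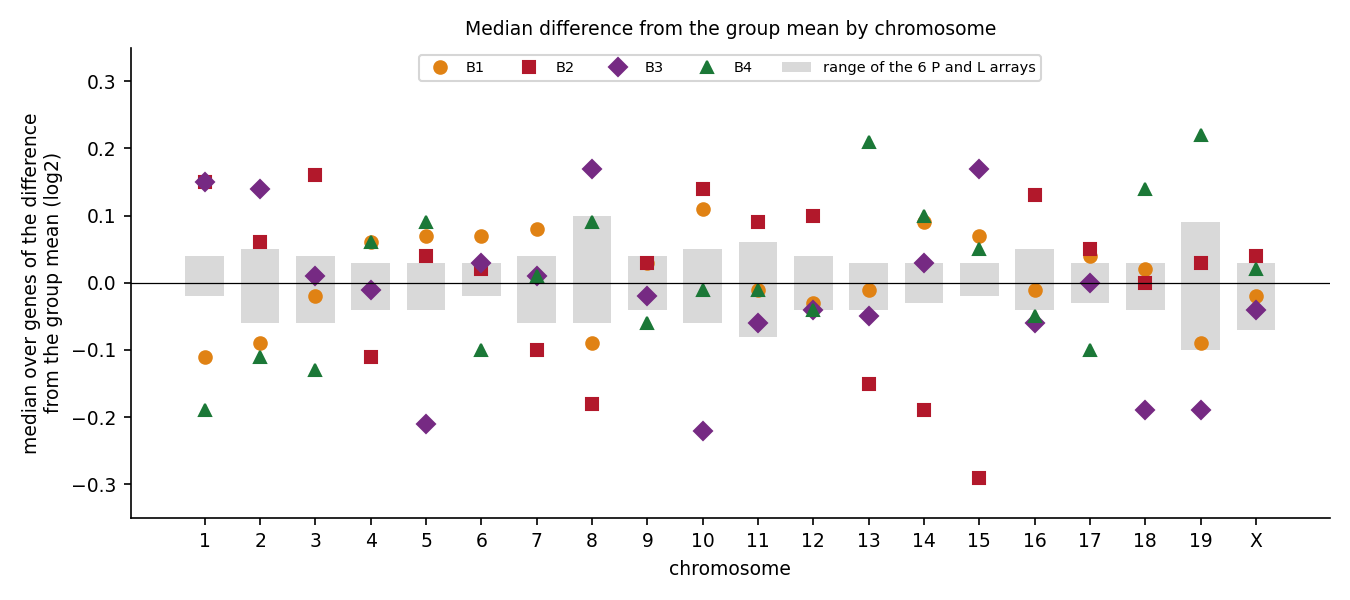
Median over the genes of each chromosome of the difference from the group mean (log2) for each brain subline (coloured points), with the range of the 6 P and L arrays in grey. B2 on chromosome 15 (-0.29) and B4 on chromosome 19 (0.22) are the extremes, and the P and L arrays stay between -0.10 and 0.10.

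Different probes of 1 gene were compared as a limited check of the measurement. Over 3721 genes with at least 2 detected probes, the differences of an array from its group mean correlated between the 2 brightest probes with r of 0.51, 0.68, 0.71 and 0.63 for B1 to B4, against 0.51, 0.42 and 0.40 for P1 to P3 and 0.35, 0.33 and 0.33 for L1 to L3. These are correlations across genes of single arrays, given as a description. The values were higher for B2, B3 and B4 than for any P or L array. Where the probes of a pair lie in the gene was not examined. Both are read from the same RNA, so their agreement does not tell a difference between sublines from one between cultures.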

How the data were processed

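RNA of 10 cultured sublines was hybridised to 1-colour Illumina MouseWG-6 v2.0 arrays, 1 array a subline. The authors exported probe intensity values, without background correction or normalization, and a detection p-value for each probe from GenomeStudio, and these deposited tables were used here. The authors also deposited log2-scale values processed with lumi (variance stabilization and robust spline normalization, probes filtered at a detection p-value of 0.01), which served as an alternative. The labels put 4 arrays in the brain group and 3 in each other group; members and gene lists were chosen with earlier results of these data known.

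With limma 3.58.1 in R 4.3.3, intensities were background-corrected with neqc (offset 16, quantile normalization, log2). Of 45281 probes, 34885 had 1 gene symbol in the platform annotation, 18 several and 10378 none. For each gene the probe with the highest mean over the 10 arrays was used, and a gene was tested where it was detected (p of 0.01 or less) on at least 1 array, which left 9486 genes. In limma's fit each B array had its own coefficient and P and L 1 mean each, so that the residual spread came from the P and L arrays; the F test (3 degrees of freedom) asked whether B1 to B4 differed, contrasts set each B array against the mean of the others, and p-values were adjusted over all tested genes. The fit was tested on simulated data. Where no array on the lower side of a difference was detected, the fold change was computed against the dimmest detected probe of each (log2 5.56 to 5.91) and is written as a lower bound. The number of arrays limits the precision.

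Same-numbered L and B arrays deviated together (r = 0.20, 0.17 and 0.21 over genes for numbers 1 to 3, against -0.15 to -0.02 for different numbers), and those of P and B did not (-0.06, -0.14 and 0.09). Differently numbered P and B arrays ran from -0.12 to 0.20, the highest being B2 with P1, so a value of this size also arose between different numbers. The deviations within a group cancel out, so values for same and different numbers are not independent. The numbers come from the labels, which do not say what they share, so the fit with the number as a block is given beside the count. Which slide held each array and when it was scanned is not given in the sources used here.

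Genes were named by rule: the 20 varying genes with the largest SD over B, the 6 largest passing departures of each B array in each direction, the 3 members of each of the 26 gene and 10 marker lists with the largest SD, and genes the study's text names. Cldn3, Cdh1, Krt8, Krt18, Esrp2, Gsta2, Nsdhl, Sqle, Snai2 and Sparc were named after their values were seen, as were the other members listed as having passed. Second probes were tested over all detected probes. Alternatives were the authors' processed values, median scaling, no background correction, an offset of 50, another choice of probe, 2 other detection filters, a trended prior, the replicate block and leaving out each array.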

Additional observations from a re-analysis of the deposited data

Results flagged for a closer look

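In 17 of the 84 genes examined 1 brain subline stood apart from the other 3, the gap to the nearest of them making up more of the whole range of the 4 values than Dixon's 95% limit allows. These genes were chosen largely for a wide spread or for the departure of 1 subline, so that their number is not set against chance. Over all tested genes 5.7% passed the limit, which chance passes in about 1 of 20 groups of 4. In B3 the gap was 0.834 of the range for Krt7, 0.848 for Epb41l4a, 0.882 for Kcnk1, 0.899 for Grhl2 and 0.917 for Il24, in all of which B3 was the low subline, and 0.887 for Lgals7, 0.992 for Thbs2, 0.889 for Pdgfra and 0.901 for Pdgfrb, in which it was the high one. In B2 it was 0.898 for Gsta1, 0.914 for Gsta2, 0.912 for Zc4h2, 0.948 for Lilr4b and 0.88 for Il1a, with B2 the high subline in each. In B4 it was 0.949 for Kctd12b, where B4 was high, and 0.856 for Il33, where B4 was low. In B1 it was 0.892 for Igf2bp1, where B1 was low. Il1a did not pass the test of spread among the brain sublines, and the other 16 did.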

How the results depend on the processing

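The larger distance of the B arrays from their group mean held its direction and its side of the threshold under all 18 alternatives, at 9.5 to 15.4, and at 10.4 to 18.9 with 1 array left out. The count of varying genes, 490, was 99 to 558 with 1 array left out (lowest without B3), 259 with no detection filter and 293 with only genes detected on all 10 arrays. It was 731 without background correction, 649 with a trended prior, 598 with an offset of 50 and 518 with the authors' values. With median scaling it was 422, and with another choice of probe 402. For the counts that follow, settings with smaller changes are left out. Against the spread of P alone (218) it was 418 without background correction, 26 with no filter, 137 with genes detected on all 10 arrays, 367 with a trended prior and 19 to 594 with 1 array left out (19 without B3, 60 without P3, 594 without P2). Against that of L alone (513) it was 853 without background correction, 85 with no filter, 825 with the trend and 126 to 828 with 1 left out (126 without B3, 314 without L3, 828 without L1). The count of P genes varying against B, 1, was 0 with the authors' values, no filter, genes detected on all 10 arrays or the trend, and 0 to 1 with 1 left out (0 without any B array or P1), and that of L was 0 under each of these settings.

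Departures called for B1, 44 in all, were 22 with the authors' values, 83 without background correction, 67 with an offset of 50, 20 with no filter, 12 with genes detected on all 10 arrays and 24 to 101 with 1 array left out (24 without B3, 71 without P1, 82 without B4, 101 without B2). For B2 (211) they were 370 without background correction, 81 with no filter, 121 with genes detected on all 10 arrays, 339 with the trend and 76 to 349 with 1 left out (76 without B3, 349 without B1). For B3 (513) they were 777 without background correction, 310 with genes detected on all 10 arrays and 394 to 631 with 1 left out, and for B4 (86) 144, 39 with no filter, 45 with genes detected on all 10 arrays and 48 to 182 (48 without L2, 54 without L1, 182 without B1). The cause was not tested, beyond the fewer arrays, genes or samples that some settings hold.

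With the replicate block the test on B1 to B3 called 109 genes. In fits added after seeing the data, with the block estimated from L only and the residual spread from P, the count was 37. Without a block, with the spread of P and without B4, it was 237. Of 132 results for single genes in 2239 comparisons, 2007 kept their call, 202 lost it, 30 gained it and 0 reversed. Among genes called as varying, the call was lost on leaving out at least 1 P or L array for Ccn2, Cxcl10, Gsta4, Hexa, Igf2bp1, Il33, Krt14, Msmo1, Mvd, Notum, Pdgfra, Sqle and Zfp979. Values near the array's dimmest detected probe hold no order.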

Other observations

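Further members of the lists varied among the brain sublines. Ptgs2, the inducible cyclooxygenase, had 5.72, 7.15, 7.58 and 7.47 in B1 to B4, against 8.30, 8.0 and 8.29 in P and 7.59, 7.69 and 7.66 in L, so that B1 was the lowest of all 10 arrays (limma F test, adjusted p = 0.00581). Cxcl10, an interferon-induced chemokine, had 7.47, 5.23, 4.79 and 6.88 in B1 to B4, and B2 and B3 were below detection (adjusted p = 0.0313). Fbln2, a fibulin of the extracellular matrix, had 9.79, 9.05, 10.50 and 10.75 in B1 to B4, all below the 11.30 to 11.68 of P and L (adjusted p = 0.00709). St14, the epithelial membrane protease matriptase, had 6.0 in B3, against 8.20, 7.99 and 8.12 in B1, B2 and B4 and 8.32 to 8.76 in P and L (adjusted p = 0.00334). Notum, an enzyme that inactivates Wnt proteins, had 7.04, 7.64, 6.25 and 6.94 in B1 to B4 and was detected on no P or L array (adjusted p = 0.0428). With the replicate block Cxcl10 and Notum did not pass (adjusted p = 0.131 and 0.127, with 0.00273 to 0.126 and 0.0241 to 0.272 over their other alternatives), and neither did in the authors' processed values.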
